A study of Mus musculus with 4 samples.

Results

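The interferon response genes were 46 genes taken by symbol, of which 42 had a probe set annotated with that symbol alone, among 18194 genes measured in this way. Isg15, Oas1g, Tgtp1 and Ifi44 are not analysed here. The choice used gene names and no measured value, but it was made with earlier results of these data known. Mouse livers were profiled at 10 months of age in 4 groups, each with 1 array that held a pool of liver RNA from 3 to 5 mice. The DEN + CA diet group received diethylnitrosamine (DEN), a carcinogen that initiates liver tumours in mice, followed by feed containing 0.2% of the primary bile acid cholic acid (CA). The DEN + control diet group received the carcinogen followed by control diet, the CA diet group received no DEN and the same CA feed, and the control diet group received no DEN and control diet. For strain, sex, DEN dose and the share of tumour tissue in each pool the sources used here give nothing. With 1 pooled array a group there was no spread between replicates, so no test was made, and every difference below is a difference between 2 pools.

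Interferons are secreted alarm proteins that act through cell surface receptors and JAK kinases on STAT transcription factors. Type I interferons act on target genes through the interferon-stimulated response element (ISRE), which IRF9 helps to bind, and interferon gamma acts through the gamma-activated site (GAS). The products degrade viral RNA, block translation, sense nucleic acids or attack the vacuoles of intracellular microbes, and in liver both hepatocytes and resident macrophages respond.

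Most of these genes were highest in the pool that had received both treatments. Of 42 genes, 33 were highest in DEN + CA livers and also lowest in control livers, an order found in 11.9% of all genes and in 14.6% of those at or above the median level. The median level, 4.855, is the median of the mean log2 values of all probe sets. The exceptions were Oas3, Mx1, Mx2, Gbp2, Ifi47, Irf7, Stat2, Isg20 and Parp9. In DEN + CA livers over control livers, 21 of 42 genes were at least 2-fold higher, against 4.4% of all genes and 5.97% of those at or above the median level. None was at least 2-fold lower, against 1.5% of all genes. By any amount 39 of 42 were higher, against 47.3% of all genes, and 32 were at least 1.5-fold higher, against 9.14%, with none 1.5-fold lower, against 5.39%. The median log2 difference of the 42 genes was 1.00, against -0.02 over all genes.

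**Figure D1:**
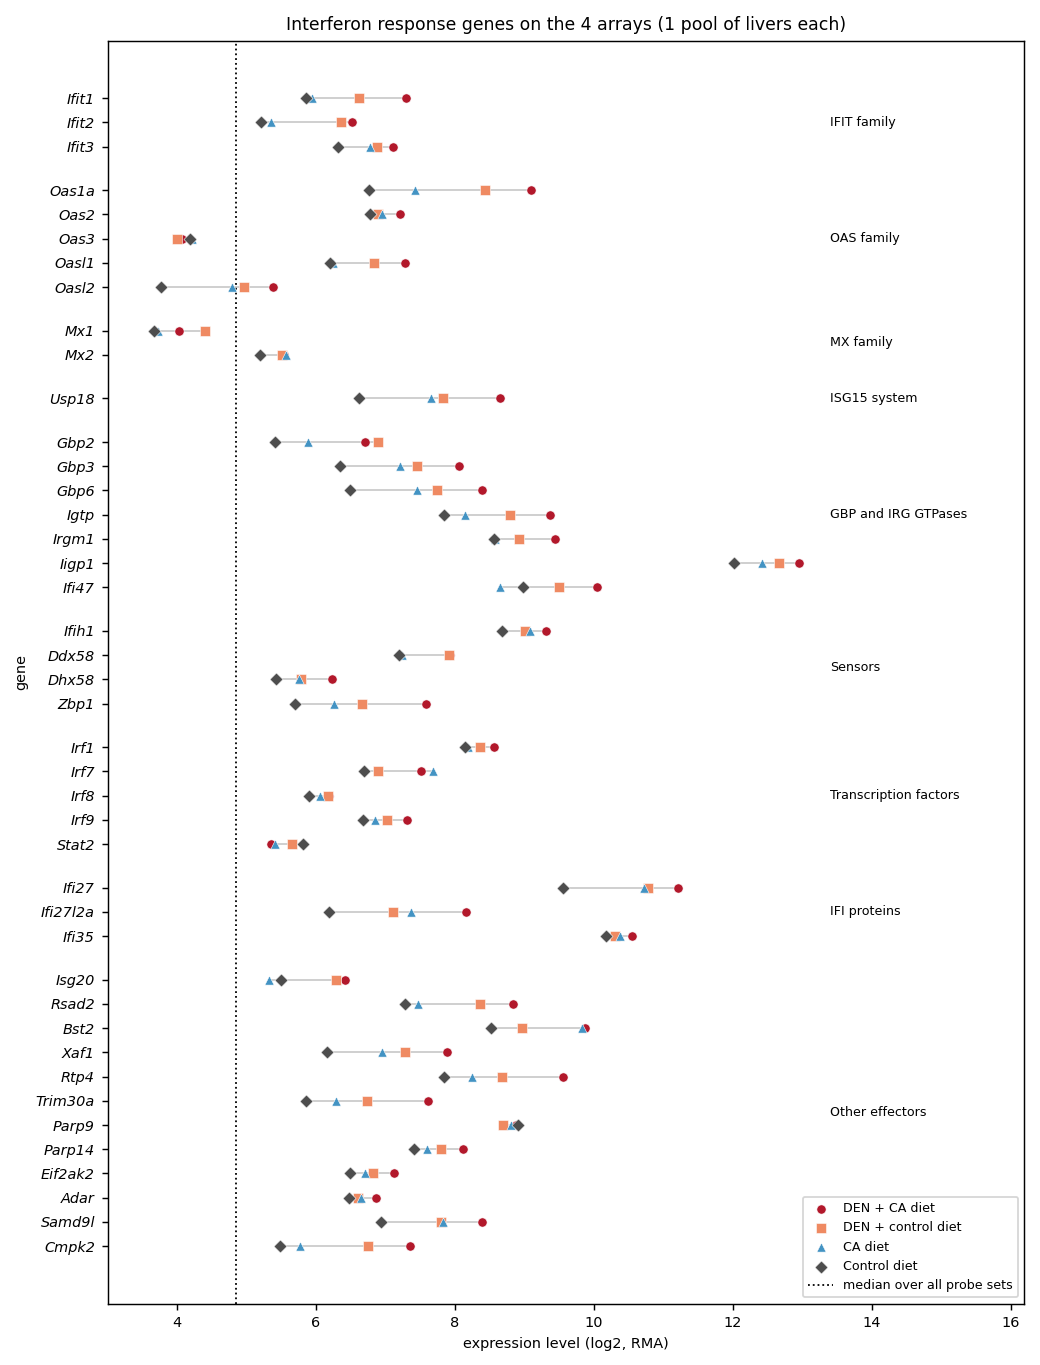
Expression level (log2) of the 42 interferon response genes on the 4 arrays, with genes in rows by role and 1 point for each pool; the dotted line is the median over all probe sets (4.855). In most rows the DEN + CA point lies furthest right and the control point furthest left, as for Oas1a (9.09 and 6.77); the DEN + CA point of Ddx58 lies under that of DEN + control diet (7.92 each).

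Alb, the albumin gene of hepatocytes, lay between 14.74 and 14.82 on the 4 arrays, and the 5 measured of 6 hepatocyte markers had a median difference of 0.03 in DEN + CA over control livers. The summed level of Kupffer cell and macrophage markers was highest in DEN + CA and lowest in control livers, as for most interferon genes. Sums of some other marker lists below had this order too. All 10 listed markers were higher in DEN + CA than in control livers (median log2 difference 1.25). Their summed linear level was 8956 in DEN + CA, 6387 in DEN + control diet, 5016 in CA and 3291 in control livers. Between the single treatments the markers were split. Mpeg1 (11.16 and 9.73), Cd14, Cd68 and Csf1r were higher in DEN + control diet than in CA livers. Adgre1, Clec4f, Marco, Cd5l, Vsig4 and Timd4 were higher in CA livers, unlike most interferon genes. Of the 7 measured of 8 markers of dendritic cells and MHC class II, 5 were higher in DEN + CA than in control livers (median 1.34). Their sums were 2428 in DEN + CA, 2475 in DEN + control diet, 987 in CA and 731 in control livers. Cd74 and the MHC class II genes H2-Ab1, H2-Aa and H2-Eb1 ran from 1.34 to 2.04. The dendritic cell genes did not follow, with Itgax at 0.35, Flt3 at -0.07 and Xcr1, below the median level on every array, at -0.23. Among 5 markers of plasmacytoid dendritic cells, the main producers of type I interferon, Siglech and Ccr9 were below the median level on every array, and the median difference was 0.31. Ly6d, of the same list, differed by 5.19. Lymphocytes of the T and NK lineages had 9 of 10 markers measured, with a median of 0.35, and Ncr1, Gzmb and Prf1 were below the median level on every array. Among neutrophil markers, 4 of 5 measured, S100a8 differed by 2.86 and S100a9 by 2.40. Csf3r differed by 0.06 and Mpo, below the median level on every array, by -0.13. The median of 1.23 lies between these pairs and describes neither. All 5 endothelial markers were higher (median 0.51), as were all 4 cholangiocyte markers (median 0.46, Sox9 at 1.89). Sums of these lists had the same order of pools as those of macrophages, but single markers did not all follow. Krt7, Epcam, Clec4g and Mpo were higher in CA than in DEN + control diet livers. From DEN + CA to control livers they were 1763, 1440, 1259 and 1198 for endothelial and 197, 152, 123 and 102 for cholangiocyte markers. For neutrophil markers they were 345, 279, 183 and 158. Of 5 measured of 7 B and plasma cell markers 4 were higher (median 0.50, Jchain at 1.51), while Mzb1 differed by -0.28. Cd79a and Ms4a1 were below the median level on every array. Jchain was highest in DEN + control diet livers, at 7.67 against 6.77 in DEN + CA livers. In bulk tissue more cells of a type and more RNA per cell cannot be told apart, and the part of these cells in the differences was not tested.

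The promoters show what many of these genes share in sequence. RefSeq windows from 250 bases before to 50 bases after a transcript start (GRCm38.p6) were at hand for 33 of the 46 genes. The ISRE core, GAAA followed by any 2 bases and GAAA again, searched on both strands and with overlapping matches counted, stood in a window of 18 of the 33 genes (54.5%), against 3.99% of all 27025 genes with such windows and 3.44% of 32851 windows. Of the 28 matches 24 began upstream of the start, from position -222 to -12, where -1 is the last base before the start. The GAS motif TTCNNNGAA, a palindrome, stood in 11 of the 33 genes (33.3%), against 9.55% of all genes. A match is a description of letters, and the genes were picked for being known interferon targets. The 4 windows printed first are those of genes with large or contrasting differences, whole and 5′ to 3′ on the gene's strand, with the ISRE core in capitals (where it lies on the other strand it reads as TTTC, 2 bases and TTTC).
Ifit1, chr19:34640639-34640938 (+): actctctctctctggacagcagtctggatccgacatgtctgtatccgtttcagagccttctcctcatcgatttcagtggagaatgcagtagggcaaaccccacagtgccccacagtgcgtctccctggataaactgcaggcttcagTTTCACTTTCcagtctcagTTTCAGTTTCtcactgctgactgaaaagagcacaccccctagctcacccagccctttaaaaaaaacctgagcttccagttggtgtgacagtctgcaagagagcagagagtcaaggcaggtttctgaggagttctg
Oas1a, chr5:120907476-120907775 (-): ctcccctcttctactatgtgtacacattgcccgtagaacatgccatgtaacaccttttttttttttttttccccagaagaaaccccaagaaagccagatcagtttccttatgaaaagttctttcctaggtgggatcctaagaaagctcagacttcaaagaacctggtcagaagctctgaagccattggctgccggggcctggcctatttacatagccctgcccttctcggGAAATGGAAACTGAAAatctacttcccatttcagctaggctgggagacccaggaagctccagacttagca
Igtp, chr11:58199306-58199605 (+): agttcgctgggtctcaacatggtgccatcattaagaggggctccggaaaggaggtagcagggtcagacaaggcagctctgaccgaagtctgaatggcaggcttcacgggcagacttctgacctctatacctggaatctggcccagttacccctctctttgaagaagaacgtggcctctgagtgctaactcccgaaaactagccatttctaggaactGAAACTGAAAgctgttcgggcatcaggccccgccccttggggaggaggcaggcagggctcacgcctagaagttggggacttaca
Bst2, chr8:71537423-71537722 (-): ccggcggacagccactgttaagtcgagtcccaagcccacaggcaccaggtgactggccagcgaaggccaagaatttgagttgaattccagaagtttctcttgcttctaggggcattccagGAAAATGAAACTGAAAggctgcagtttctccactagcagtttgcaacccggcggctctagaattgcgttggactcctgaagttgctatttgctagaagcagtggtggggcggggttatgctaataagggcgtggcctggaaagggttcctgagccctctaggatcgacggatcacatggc
In Ifit1 the 2 cores began at -104 and -85. In Oas1a 2 overlapping cores began at -20 and -14, and a GAS motif began at -98. In Igtp the core at -34 followed a GAS motif at -45, and in Bst2 overlapping cores at -130 and -124 overlapped a GAS motif at -136. The next lines give the cores of other genes with 20 bases on each side, where 3 genes at least 2-fold higher in DEN + CA than in control livers (Gbp3, Trim30a, Rsad2) stand before 2 that were not (Oas3, Stat2).
Gbp3, chr3:142559979-142560034 (+): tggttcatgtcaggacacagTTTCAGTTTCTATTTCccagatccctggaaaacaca
Trim30a, chr7:104465200-104465249 (-): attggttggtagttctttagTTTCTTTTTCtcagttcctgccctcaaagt
Rsad2, chr12:26456543-26456592 (-): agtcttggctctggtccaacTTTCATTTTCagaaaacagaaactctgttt
Oas3, chr5:120777705-120777754 (-): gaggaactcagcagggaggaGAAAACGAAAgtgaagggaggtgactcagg
Stat2, chr10:128270256-128270305 (+): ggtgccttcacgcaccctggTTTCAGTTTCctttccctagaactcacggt
The 15 measured genes with a core had a median log2 difference of 1.31 in DEN + CA over control livers, with a range from -0.47 for Stat2 to 2.32 for Oas1a. The 14 with a window and no core had a median of 0.99, with a range from 0.29 for Irf8 to 1.88 for Cmpk2. The ranges overlapped widely.

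The IFIT proteins bind foreign RNA and block its translation. Ifit1 stood at 7.29 in DEN + CA, 6.61 in DEN + control diet, 5.95 in CA and 5.86 in control livers, log2 levels as for all genes below. Ifit2 stood at 6.52 in DEN + CA, 6.36 in DEN + control diet, 5.36 in CA and 5.21 in control livers. Both pools that had received DEN were thus above both that had not, and the CA diet alone left a difference of only 0.08 for Ifit1 and 0.15 for Ifit2. After DEN the CA diet difference was 0.68 for Ifit1 and 0.16 for Ifit2. Ifit3 was more even, with 7.11 in DEN + CA livers and 6.32 in control livers.

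The oligoadenylate synthetases make the second messenger that switches on RNase L. Oas1a had the widest range of all 42 genes, with 9.09 in DEN + CA, 8.43 in DEN + control diet, 7.43 in CA and 6.77 in control livers. It was 5.00-fold higher in DEN + CA than in control livers. The CA diet difference was 0.66 both after DEN and without it, and the DEN difference was 1.66 on either diet. Oasl1, an OAS-like gene, stood at 7.28 in DEN + CA, 6.84 in DEN + control diet, 6.24 in CA and 6.21 in control livers. Oasl2, another OAS-like gene, stood at 5.38 in DEN + CA, 4.96 in DEN + control diet, 4.79 in CA and 3.77 in control livers. Since control lay below the median level, Oasl2 is given as at least 1.44-fold higher in DEN + CA livers, although its log2 difference was 1.61. Oas2 stayed between 6.78 and 7.21 in all pools, and Oas3 was below the median level in every pool (3.99 to 4.22). The OAS family was therefore uneven, with 3 of 5 measured genes at least 2-fold higher in DEN + CA over control livers, against 4.4% of all genes, Oasl2 among them only on its measured values. The signs of Oas2 for DEN on control diet and of Oas3 and Oasl1 for the CA diet without DEN turned when arrays were centred, and that of Oas2 also under quantile normalization.

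The MX proteins are dynamin-like antiviral GTPases, and neither gene differed by 2-fold. Mx1 stood at 4.03 in DEN + CA, 4.40 in DEN + control diet, 3.73 in CA and 3.66 in control livers, all below the median level. Mx2 stood at 5.54 in DEN + CA, 5.52 in DEN + control diet, 5.56 in CA and 5.19 in control livers. Usp18, the protease that removes ISG15 and dampens the type I receptor, was graded across the pools instead. It stood at 8.65 in DEN + CA, 7.83 in DEN + control diet, 7.66 in CA and 6.62 in control livers, which made it 4.07-fold higher in DEN + CA than in control livers.

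The guanylate-binding proteins and immunity-related GTPases, classical products of interferon gamma signalling, act on the membranes of vacuoles that hold microbes. Gbp6 stood at 8.40 in DEN + CA, 7.74 in DEN + control diet, 7.45 in CA and 6.48 in control livers. Gbp3 stood at 8.05 in DEN + CA, 7.45 in DEN + control diet, 7.21 in CA and 6.34 in control livers. These 2 genes were 3.77-fold and 3.27-fold higher in DEN + CA than in control livers, and each treatment alone gave a higher level than control. Gbp2 stood at 6.71 in DEN + CA, 6.89 in DEN + control diet, 5.89 in CA and 5.40 in control livers. Its CA diet difference after DEN was -0.18 on this probe set and 0.35 on its other one, so its direction there depends on the probe set. The other one also gave 1.04 for the CA diet without DEN, against 0.49 here, and 2.05 in DEN + CA over control livers, against 1.31. For Gbp6 the DEN difference on control diet was 1.25 on the probe set used and 0.41 on the other.

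Igtp, an immunity-related GTPase, stood at 9.37 in DEN + CA, 8.80 in DEN + control diet, 8.15 in CA and 7.84 in control livers. Ifi47, of the same family, stood at 10.05 in DEN + CA, 9.51 in DEN + control diet, 8.66 in CA and 8.98 in control livers. Ifi47 was the member whose CA diet difference turned most between the arms, at 0.54 after DEN and -0.33 without it. Irgm1, a regulatory GTPase of the family, stood at 9.43 in DEN + CA and 8.56 in control livers, and its CA diet difference without DEN, 0.02, turned sign after centring. Iigp1, an effector GTPase, was the member with the highest level, 12.95 in DEN + CA and 12.02 in control livers.

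Among 4 sensors of foreign nucleic acid, with a median difference of 0.77 in DEN + CA over control livers, Zbp1 was the 1 gene past 2-fold. ZBP1 binds left-handed nucleic acid and can start necroptosis. Zbp1 stood at 7.59 in DEN + CA, 6.66 in DEN + control diet, 6.26 in CA and 5.70 in control livers, and its other probe set gave the same order of pools. The helicase gene Dhx58 stood at 6.24 in DEN + CA, 5.78 in DEN + control diet, 5.76 in CA and 5.42 in control livers, but 2 further probe sets of Dhx58 had mean levels of 3.36 and 3.50 and differed by 0.68 and -0.77. The RNA helicase genes Ifih1 and Ddx58 differed by 0.63 and 0.73 in DEN + CA over control livers. For Ddx58 the 2 pools that had received DEN both stood at 7.92, against 7.24 in CA and 7.19 in control livers.

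The 5 transcription factors of the response had a median difference of 0.41 in DEN + CA over control livers. Irf7, which drives interferon alpha genes, stood at 7.51 in DEN + CA, 6.89 in DEN + control diet, 7.69 in CA and 6.69 in control livers. Both CA diet pools were therefore above both control diet pools, with CA diet differences of 0.61 after DEN and 1.00 without it, and DEN differences of -0.18 on CA diet and 0.21 on control diet. Irf9, the DNA-binding part of the type I complex, stood at 7.31 in DEN + CA, 7.02 in DEN + control diet, 6.85 in CA and 6.68 in control livers. Stat2, its partner, was lower in DEN + CA (5.35) than in control livers (5.82), and its other probe set, at a mean level of 4.60, differed by 0.11. Irf1 and Irf8, factors of interferon gamma signalling and of myeloid cells, differed by 0.41 and 0.29 in DEN + CA over control livers, while a second probe set of Irf8 differed by 0.92.

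Ifi27l2a and Ifi27 encode small hydrophobic interferon-induced proteins. They were the genes with the largest CA diet differences without DEN after Bst2. Ifi27l2a stood at 8.16 in DEN + CA, 7.11 in DEN + control diet, 7.37 in CA and 6.18 in control livers. It was the only one of the 42 genes at least 2-fold higher on the CA diet both after DEN (2.07-fold) and without it (2.28-fold). Ifi27 stood at 11.21 in DEN + CA, 10.79 in DEN + control diet, 10.73 in CA and 9.56 in control livers, and its second probe set differed by 1.74 in DEN + CA over control livers, against 1.66 here. Its CA diet difference was 0.43 after DEN and 1.17 without it, which made the gap between both diet differences, -0.74, the lowest of the 42 genes.

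Bst2, tetherin, which holds budding viruses at the cell surface, followed the diet. It stood at 9.87 in DEN + CA, 8.97 in DEN + control diet, 9.83 in CA and 8.52 in control livers. The CA diet difference was 0.90 after DEN and 1.31 without it, while the DEN difference was 0.04 on CA diet, with a turned sign after centring, and 0.45 on control diet. Cmpk2, a mitochondrial nucleotide kinase gene, followed DEN instead, with 7.36 in DEN + CA, 6.75 in DEN + control diet, 5.77 in CA and 5.48 in control livers. Its neighbour in the genome Rsad2, which encodes viperin, an enzyme that makes a chain-terminating nucleotide, stood at 8.83 in DEN + CA, 8.36 in DEN + control diet, 7.47 in CA and 7.28 in control livers. The DEN differences of Cmpk2 were 1.59 on CA diet and 1.28 on control diet, and those of Rsad2 were 1.37 and 1.08. The other probe set of Cmpk2, with a mean level of 4.17, below the median level, differed by 0.24 and 0.03, and the mean over both gave 0.92 on CA diet and 0.66 on control diet, under 2-fold. Isg20, an exonuclease gene, stood at 6.42 in DEN + CA, 6.29 in DEN + control diet, 5.33 in CA and 5.50 in control livers, with both DEN pools above both others.

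Other effectors were graded over the 4 pools. Trim30a, of a family of ubiquitin ligases, stood at 7.61 in DEN + CA, 6.73 in DEN + control diet, 6.29 in CA and 5.85 in control livers. Rtp4, a chaperone-like gene of receptor transport, stood at 9.55 in DEN + CA, 8.68 in DEN + control diet, 8.25 in CA and 7.84 in control livers. Xaf1, a pro-apoptotic gene, stood at 7.88 in DEN + CA, 7.28 in DEN + control diet, 6.95 in CA and 6.16 in control livers. These 3 genes were 3.39-fold, 3.28-fold and 3.30-fold higher in DEN + CA than in control livers. Second probe sets of Rtp4 and Xaf1, with mean levels of 4.58 and 3.75, differed by only 0.41 and 0.03. Samd9l, an antiviral translation inhibitor, stood at 8.39 in DEN + CA, 7.80 in DEN + control diet, 7.83 in CA and 6.94 in control livers, so the 2 single treatments gave nearly the same level.

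Every gene at least 2-fold different in any comparison was listed pool by pool. By this rule the 15 genes not listed so were under 2-fold in all 5 comparisons on the probe sets used. These genes ran from -0.47 for Stat2 to 0.93 for Iigp1 in DEN + CA over control livers. Among them Parp14, Eif2ak2 and Adar, which encode an ADP-ribosyltransferase, the RNA-activated kinase PKR and an RNA-editing enzyme, differed by 0.70, 0.64 and 0.39, and Ifi35 by 0.38. A further probe set of Eif2ak2, with a mean level of 4.57, below the median level, differed by 1.69 in DEN + CA over control livers and by 1.38 for DEN on control diet. For Adar and Ifi35 the DEN difference on control diet (0.13 and 0.14) turned sign after centring. Parp9, a partner of ADP-ribosylation, differed by -0.02. In all, 9 of the 42 genes (21.4%) stayed within 1.5-fold in all 5 comparisons, against 79.1% of all genes. They were Oas2, Oas3, Mx2, Irf1, Irf8, Stat2, Ifi35, Parp9 and Adar. The place of Irf8 among them depends on the probe set, since its other one differed by 1.03 for DEN on control diet.

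**Figure D2:**
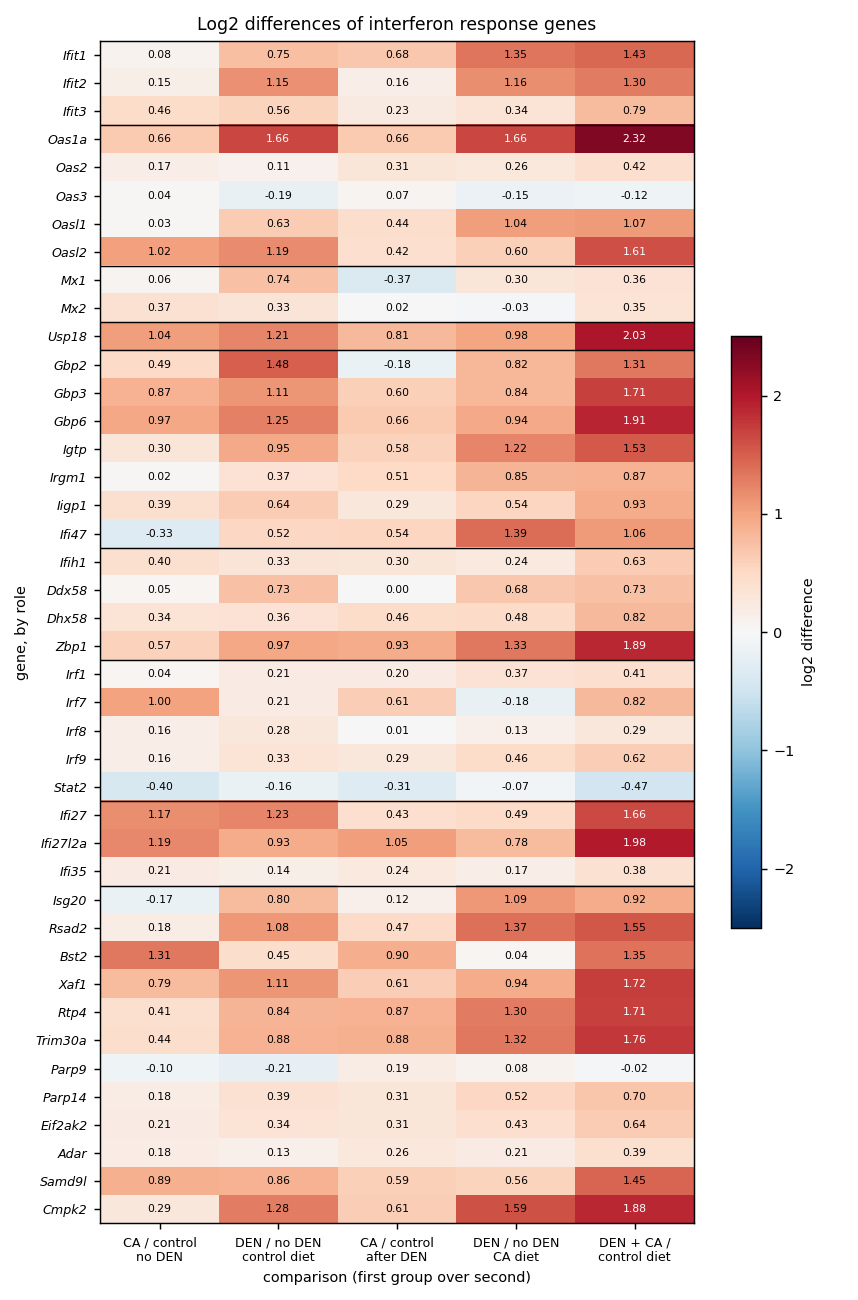
Log2 differences of the 42 genes (rows, by role) in the 5 comparisons (columns), each the first group over the second. Red cells are higher in the first group; Oas1a reaches 2.32 in DEN + CA over control livers, and the column for the CA diet after DEN holds a single value of at least 1, that of Ifi27l2a (1.05).

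DEN livers over livers without DEN on control diet address what the carcinogen alone goes with. In this comparison 11 of 42 genes were at least 2-fold higher, against 3.82% of all genes, and 23 were at least 1.5-fold higher, against 8.5% of all genes and 11.1% of those at or above the median level. None was 1.5-fold lower, against 3.82% of all genes, and none 2-fold lower, against 0.632%. By any amount 39 were higher, against 46.7%, and the median log2 difference was 0.68. After centring of the arrays on the median of genes above the median level, 7 genes were at least 2-fold higher. The largest differences were those of Oas1a (1.66), Gbp2 (1.48), Cmpk2 (1.28), Gbp6 (1.25) and Ifi27 (1.23). On the CA diet, DEN livers over livers without DEN gave 12 of 42 genes at least 2-fold higher, against 3.51% of all genes, and none 2-fold lower, against 1.17%. At 1.5-fold 21 were higher, against 7.96%, and none lower, against 4.64%. By any amount 38 were higher, against 47.8%, with a median of 0.58. Here Oas1a (1.66), Cmpk2 (1.59), Ifi47 (1.39), Rsad2 (1.37) and Ifit1 (1.35) led.

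These 2 comparisons share no array. Ifit2, Oas1a, Rsad2 and Cmpk2 were at least 2-fold higher in both, and 19 of 42 genes (45.2%) were at least 1.5-fold higher in both, against 5.69% of all genes. Across the 42 genes the DEN differences on both diets correlated at 0.75 (Pearson), against 0.81 across all 18194 genes. Genes are not independent replicates, and the arrays were normalised together. Macrophage markers had a median DEN difference of 0.41 on CA diet and 0.65 on control diet, with 10 of 10 higher on CA diet and 9 of 10 on control diet. They were uneven, since Cd14, a receptor gene of monocytes, differed by 3.79 on CA diet and 3.04 on control diet, while the Kupffer cell gene Vsig4 differed by 0.33 and 0.16. Clec4f and Timd4, also of Kupffer cells, differed by 0.12 and 0.19 on CA diet and by -0.0035 and 0.0020 on control diet.

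The CA diet over control diet without DEN addresses the bile acid load alone. Of 42 genes 6 were at least 2-fold higher, namely Bst2 (1.31), Ifi27l2a (1.19), Ifi27 (1.17), Usp18 (1.04), Oasl2 (1.02) and Irf7 (1.00). The share over all genes was 0.478%, and none of the 42 was 2-fold lower, against 0.407%. By any amount 38 were higher, against 50.5%. Both levels of Oasl2 lay below the median level, and Irf7 just reached the threshold. The count of 6 was 5 under quantile normalization and 4 after centring of the arrays. At 1.5-fold, 11 genes were higher and none lower, against 2.02% and 1.49% of all genes, and the median was 0.30. Genes of the IFIT family were not among the 11. The largest difference of the 18 hybridization control probe sets between these 2 arrays was 0.305.

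After DEN, the CA diet over control diet gave 1 gene at least 2-fold higher, Ifi27l2a, against 0.253% of all genes, and none 2-fold lower, against 0.346%. By any amount 39 were higher, against 49.4%. At 1.5-fold, 14 of 42 genes were higher and none lower, against 1.37% and 1.46% of all genes. The median was 0.43, and the largest difference of a hybridization control was 0.267. Zbp1 (0.93), Bst2 (0.90), Trim30a (0.88), Rtp4 (0.87) and Usp18 (0.81) followed Ifi27l2a. The 2 diet comparisons share no array, and 9 of 42 genes (21.4%) were at least 1.5-fold higher in both, against 0.302% of all genes. They were Oas1a, Usp18, Gbp3, Gbp6, Irf7, Ifi27l2a, Bst2, Xaf1 and Samd9l. Across the 42 genes the diet differences correlated at 0.59 (Pearson), against 0.30 across all genes. The median gap between the diet differences, after DEN minus without DEN, was 0.03, and single genes ran from -0.74 for Ifi27 to 0.87 for Ifi47. Macrophage markers were higher on the CA diet in all 10 cases after DEN (median 0.63) and in all 10 without it (median 0.59). The MHC class II and dendritic cell markers had medians of 0.00 after DEN and 0.33 without it.

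**Figure D3:**
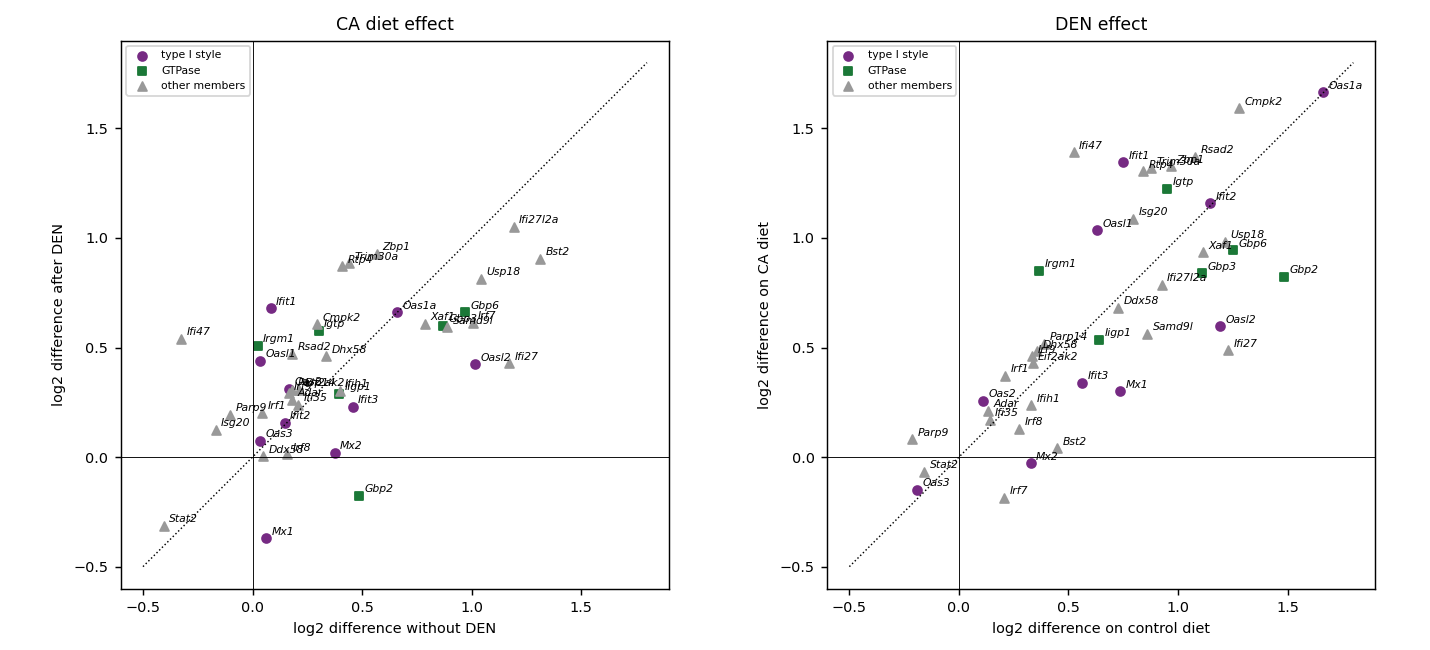
Left, CA diet difference of each gene after DEN (vertical) against that without DEN (horizontal); right, DEN difference on CA diet (vertical) against that on control diet (horizontal), log2, with equal values on the dotted line; circles are type I style genes, squares GTPases and triangles the other members. Bst2 (0.90 and 1.31) and Ifi27l2a (1.05 and 1.19) lie far along both axes on the left, where Ifi47 is the gene higher after DEN (0.54) and lower without it (-0.33) by the widest margin.

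The 2 single treatments can be set side by side, although their differences from the control pool share that array. DEN + control diet livers had a higher level than CA diet livers in 31 of 42 genes (73.8%), against 47.0% of all genes. The other 11 were Oas2, Oas3, Mx2, Ifih1, Irf7, Ifi27l2a, Ifi35, Bst2, Parp9, Adar and Samd9l. Bst2 (8.97 in DEN + control diet and 9.83 in CA livers) and Irf7 (6.89 and 7.69) had the widest gaps in favour of the CA diet.

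**Figure D4:**
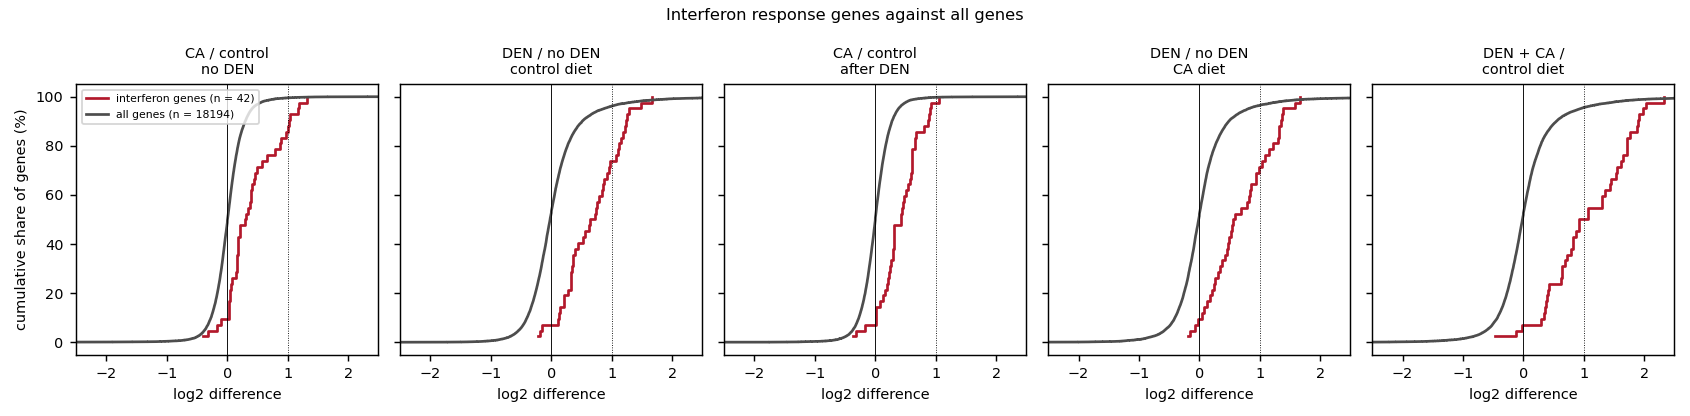
Cumulative share of genes (percent) against log2 difference in the 5 comparisons, for the 42 interferon response genes and for all 18194 genes; the dotted line marks 2-fold. Over most of its length the interferon curve lies to the right of that of all genes in all 5 panels, with medians of 0.30, 0.68, 0.43, 0.58 and 1.00 from left to right.

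Type I style genes (Ifit, Oas and Mx, 10 of 12 measured) were then compared with the GTPases typical of interferon gamma (Gbp2, Gbp3, Gbp6, Igtp, Irgm1 and Iigp1). In DEN + CA over control livers the type I style genes had a median of 0.93 with a range from -0.12 to 2.32, and the GTPases 1.42 with a range from 0.87 to 1.91. All 6 GTPases were at least 1.5-fold higher there, and 6 of 10 type I style genes were, against 9.14% of all genes. The lower end of the type I style range is Oas3, which was below the median level in every pool. For DEN on control diet the medians were 0.68 for type I style genes and 1.03 for GTPases, and for DEN on CA diet 0.47 and 0.84. For the CA diet after DEN they were 0.27 and 0.54, and without DEN 0.16 and 0.44. The ranges of both groups overlapped in all 5 comparisons, and no test was made. Promoter motifs did not divide along these groups. Among genes with a window, Isg15 and Oas1g included, the ISRE core stood in 4 of 4 GTPases and 6 of 9 type I style genes. The share over all genes was 3.99%. The GAS motif stood in 1 of 4 GTPases and 2 of 9 type I style genes, against 9.55% of all genes. For DEN on CA diet the order turned when Oas3, Oasl2 and Mx1, the 3 genes with a mean below the median level, were left out, with a type I style median above that of the GTPases by 0.19.

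**Figure D5:**
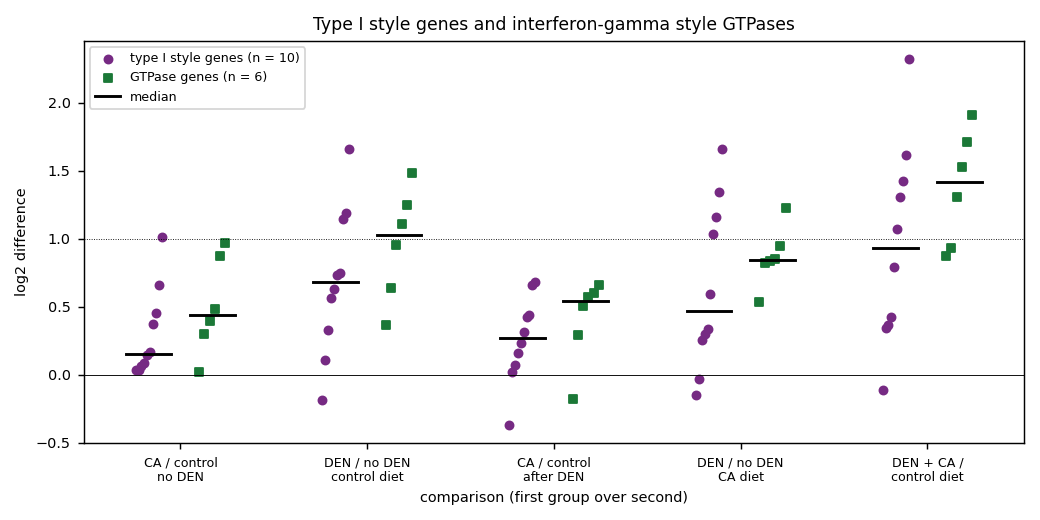
Log2 differences of 10 type I style genes and 6 GTPases in the 5 comparisons, with 1 point for each gene and a bar at each median. The GTPase median is the higher one in all 5 comparisons (1.42 against 0.93 in DEN + CA over control livers), except for DEN on CA diet once Oas3, Oasl2 and Mx1 are left out, and the points of both groups overlap throughout.

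Of 38 listed genes that signal to or from interferon, 32 were measured, 8 were at least 1.5-fold higher in DEN + CA over control livers, against 9.14% of all genes, and none was 1.5-fold lower (median 0.22). The ligand genes Ifna4, Ifnb1 and Ifng lay below the median level on all arrays, with Ifng between 2.16 and 2.59, and none of 5 measured ligands differed by 1.5-fold in any comparison. All 6 receptor genes were higher in DEN + CA than in control livers. Ifngr1, the ligand-binding chain of the interferon gamma receptor, stood at 8.34 in DEN + CA, 8.32 in DEN + control diet, 7.19 in CA and 6.92 in control livers, so that it was higher with DEN on either diet (1.16 on CA diet, 1.40 on control diet). Il10rb, a chain of the interferon lambda receptor, differed by 1.09 in DEN + CA over control livers, while Ifnar1 and Ifnar2, the type I receptor, differed by 0.51 and 0.32. The kinase genes Jak1, Jak2 and Tyk2 differed by 0.37, 0.32 and -0.03.

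Among inhibitors Socs3, a feedback inhibitor of cytokine receptors, stood at 8.98 in DEN + CA, 8.26 in DEN + control diet, 8.91 in CA and 7.44 in control livers. Socs1, the inhibitor closest to interferon signalling, lay below the median level in every pool (3.77 to 3.86). Irf2, an attenuator of the response, differed by -0.86 for DEN on CA diet. Among the genes that induce interferon, Tlr3, a receptor of double-stranded RNA, differed by 1.00 in DEN + CA over control livers and the kinase gene Ikbke by 0.98. Mavs, Sting1, Cgas, Tbk1 and Irf3, the core of RNA and DNA sensing, ran from -0.30 to 0.28 in the same comparison.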

How the data were processed

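Hepatic RNA of 4 groups of mice was measured on 1 array each, with livers of 3 to 5 mice pooled per array. The authors deposited log2 expression values for which the submitters' processing notes name RMA and Partek 6.5. RMA usually draws the distributions of the arrays together, so a change of most genes in 1 direction may be removed. Options and detection calls: not given in the sources used here. Array medians ran from 4.843 to 4.865 over 45101 probe sets, and the number of arrays limits the precision.

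Of these, 34958 probe sets had 1 symbol in the platform annotation, 932 several and 9211 none here; gene identifiers matched RefSeq (GRCm38.p6) for 34754 and changed 0 symbols. A gene took its probe set with the highest 4-array mean. No filter was applied to members, and the median of 4.855 over probe set means marks low levels. Folds of a level under it used 4.855 in its place and are given as "at least". Differences of at least 1 (2-fold) or 0.585 (1.5-fold) on the log2 scale were counted. Members and lists were chosen with earlier results of these data known. The text names members at least 2-fold different in any comparison and the 2 with the widest range in each role. The GAS search was added after the data were seen. Steps were tested on simulated data (Python 3.11.15, pandas 2.3.3).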

Additional observations from a re-analysis of the deposited data

Results flagged for a closer look

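Ifi47, an immunity-related GTPase gene, differed in opposite directions between diets in the 2 arms, by 0.54 in DEN + CA over DEN + control diet livers and by -0.33 in CA over control livers, a gap of 0.87. Both differences were larger than those of the hybridization control probe sets between the same arrays (at most 0.267 and 0.305). With 1 array a group the gap was not tested, and it rests on 1 probe set.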

How the results depend on the processing

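Low-level filtering, raised low values, quantile normalization, centring of each array, the mean over probe sets and single probe sets were tried. Of the recomputed counts and medians 125 stayed close to the reported value, 6 moved further and 1 changed sign. Close meant within 1.5 times for counts and within the largest hybridization control difference of the comparison for medians. The limit for medians is wide. For the CA diet without DEN it was 0.305, larger than the median of 0.297 and than the type I style minus GTPase difference of -0.285 in size. Closeness therefore says little about such small values. For DEN on control diet the count of genes at least 2-fold higher was 7 after centring and 17 with every probe set counted alone, where a gene can count more than once. Single probe sets also gave 2 for the CA diet after DEN. Of 51 member differences of at least 2-fold, 9 fell under 2-fold after centring and 5 under quantile normalization. With the mean over probe sets 6 fell under it, and with low levels raised 3. The type I style minus GTPase difference was -0.59 (DEN on control diet) and -0.76 (DEN + CA over control livers) with low levels raised, against -0.35 and -0.49 as reported, and -0.67 for DEN + CA over control livers with the mean over probe sets. For DEN on CA diet it was 0.19 without genes of low mean level, against -0.38 as reported, because 3 of 10 type I style genes then drop out. Centring moved the median of all genes for DEN on control diet to -0.18, against -0.02 as deposited, and left 36 of 42 members higher, against 39. The signs of Oas2, Ifi35 and Adar (DEN on control diet), of Oas3, Oasl1 and Irgm1 (CA diet without DEN) and of Bst2 (DEN on CA diet) turned under centring; quantile normalization turned that of Oas2. The ISRE core followed by 1 more C was found in 15 members, against 18. No paired analysis was possible because each group has 1 array.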

Other observations

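Other genes of the same families, taken by the start of their symbols (Gbp, Irgm, Ifit, Ifitm, Oas and Ifi) after the data were seen, numbered 27, and 10 of them had a mean below the median level. In DEN + CA over control livers the 27 had a median of 0.40, with 5 genes 2-fold higher or more, against 4.4% of all genes, and 0 as much lower, against 1.5%. Ifi27l2b, a relative of Ifi27, had the largest difference of these. It stood at 9.35 in DEN + CA, 9.36 in DEN + control diet, 6.92 in CA and 5.97 in control livers. Its DEN difference was 2.43 on CA diet and 3.39 on control diet. The CA diet difference of Ifi27l2b was -0.01 after DEN and 0.95 without it. Gbp8 stood at 7.62 in DEN + CA, 7.14 in DEN + control diet, 5.66 in CA and 5.31 in control livers. Gbp2b was higher on the CA diet after DEN (5.86 in DEN + CA and 4.78 in DEN + control diet livers, the lower one below the median level). Irgm2, a regulatory GTPase, differed by 1.26 for DEN on CA diet and by 0.83 on control diet, and Ifitm3, which hinders virus entry, by 0.27 for the CA diet after DEN and by 0.68 without DEN.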
